A study of Mus musculus with 5 samples.

Results

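Fatty acid desaturases place double bonds in fatty acyl chains, and elongases of very long chain fatty acids (ELOVL enzymes) lengthen those chains in the endoplasmic reticulum. The 10 genes described here are the stearoyl-CoA desaturase genes Scd1 and Scd2, the polyunsaturated fatty acid desaturase genes Fads1 and Fads2, and the elongase genes Elovl1, Elovl2, Elovl3, Elovl5, Elovl6 and Elovl7. They were taken by symbol from the 24808 named genes of the count tables. The set, and the contrast of Scd1 with Scd2 in it, were chosen by the treatment difference in these same libraries. Differences of the 10 genes between the groups are therefore given as descriptions, with no p-value printed for any of them. Where members past a p threshold are counted or named, the share of all genes or the calls over all genes are given, and nothing is read from it.

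The samples were livers of C57BL/6 mice, labelled as 16 weeks of age. In 3 libraries the mice had received carbon tetrachloride (CCl4), a liver toxicant used in rodents to produce fibrosis, and in 2 libraries CCl4 and givinostat, an inhibitor of histone deacetylases. The series design speaks of 3 and 2 mice, and the p-values below measure the spread between these libraries. All mice of both groups carried the CCl4 injury and no untreated liver was analysed here, so the values compare injured livers with and without the inhibitor. The tables are named with 8 weeks, which the labels do not explain, and the dosing, sex and feeding of the mice was not given in the sources used here.

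Mammals make palmitoleate and oleate by placing a double bond at the delta-9 position of palmitoyl-CoA and stearoyl-CoA, the reaction of the stearoyl-CoA desaturases. SCD1 is the main form in adult mouse liver, and SCD2 is the main form in mouse brain. FADS2 and FADS1 are the delta-6 and delta-5 desaturases, which alternate with ELOVL5 and ELOVL2 to turn the essential fatty acids of the diet into arachidonate and docosahexaenoate (DHA). ELOVL6 takes palmitate to stearate, and ELOVL1, ELOVL3 and ELOVL7 act on saturated and monounsaturated chains. In liver, transcription of several of these genes is known to be controlled by the sterol regulatory element-binding protein SREBP1c, the liver X receptors (LXR) and PPARα.

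Scd1 and Scd2 lie in a cluster on chromosome 19, with Scd4 between them, and have closely related coding sequences, which matters for reading their counts. Scd1 spans chr19:44394455-44407879 on the minus strand and Scd2 spans chr19:44293674-44306864 on the plus strand (GRCm38, GENCODE M21). Over 1065 aligned coding bases, 962 (90.3%) are identical. The stretch below holds their longest identical run, 147 bases, and is shown because reads wholly inside the identical run cannot be assigned to either gene by sequence. It covers coding bases 493 to 699 of Scd1 and 502 to 708 of Scd2, each read 5′ to 3′ on the coding strand across an exon junction, and the capitals mark the 2 bases that differ.
Scd1: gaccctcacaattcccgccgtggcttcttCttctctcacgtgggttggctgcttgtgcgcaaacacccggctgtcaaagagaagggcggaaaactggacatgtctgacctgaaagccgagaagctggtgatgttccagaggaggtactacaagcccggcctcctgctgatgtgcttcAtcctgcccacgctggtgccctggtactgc
Scd2: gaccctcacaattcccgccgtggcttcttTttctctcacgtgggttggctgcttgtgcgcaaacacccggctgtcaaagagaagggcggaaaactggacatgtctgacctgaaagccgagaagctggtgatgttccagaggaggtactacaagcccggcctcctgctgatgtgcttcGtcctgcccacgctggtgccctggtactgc
Outside such stretches the transcripts are mostly distinct. Of the 36-base windows of the Scd1 transcripts, 7.23% occur in a transcript of some other gene, and of those of Scd2, 5.94% do. With 50-base windows the shares are 4.66% and 4.01%. Fads1, Elovl2, Elovl3 and Elovl5 have no shared 36-base window, and Elovl6 has 6.71%. Whether counting used strand, and how reads with several matches were treated, was not given in the sources used here.

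The libraries held 18634801 to 21773867 counts, and 3 counts, the most that an observed 0 allows, equalled 0.138 to 0.161 CPM, the count of a gene scaled to library size by trimmed mean of M values (TMM). Albumin stood at 71028 to 78740 CPM. With albumin, 7 hepatocyte markers summed to 88230 to 99835 CPM under CCl4 and 90938 to 98358 CPM under givinostat. The sum mostly reflects albumin, and of the 7 markers 4 were higher and 3 lower. Cyp2e1, which is on that list, was at 859, 1037 and 984 CPM under CCl4 and 3038 and 1638 CPM under givinostat. Ass1, also on the list, was at 0.312 to 1.33 CPM. CCl4 replicate 1 stood apart from the other CCl4 libraries, with a chi-square per degree of freedom of 59.1 and 63.9 against them and 29.0 between those. All 5 libraries had Xist at 661 to 810 CPM and 0 counts of the Y-linked genes Ddx3y, Kdm5d, Uty and Eif2s3y.

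Of the 10 genes, 9 had enough counts for the test across 13590 genes, and Elovl3 did not. At a Benjamini-Hochberg adjusted p under 0.05, the quasi-likelihood test of edgeR called 0 of the 9 and 0.00736% of all genes. It called 1, Scd1, in 3 alternatives that also called more genes over all. These were no low-count filter (23 genes higher and 15 lower), the replicate number as a block (68 and 77) and leaving out CCl4 replicate 1 (119 and 116). At an unadjusted p under 0.05 there were 2 higher (Scd1 and Elovl5) and 1 lower (Scd2), where 3.52% and 3.93% of all genes lay (7.45% in either direction). DESeq2 called 1 higher and 0 lower, where it called 0.508% and 0.581% of all genes (1.09% in either direction). The libraries of the groups did not overlap for Scd1 and Elovl5, which were higher under givinostat, and for Scd2, which was lower, as for 11.7% of all genes in each direction and 23.4% in either. The median log2 fold change of the 9 genes was 0.23, with 6 higher and 3 lower, beside -0.02 over all genes, of which 6272 were higher and 7318 lower. Without givinostat replicate 2 the median of the 9 was 0.073, with 5 higher and 4 lower. These genes were chosen with this contrast known, and nothing is read from these counts.

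**Figure D1:**
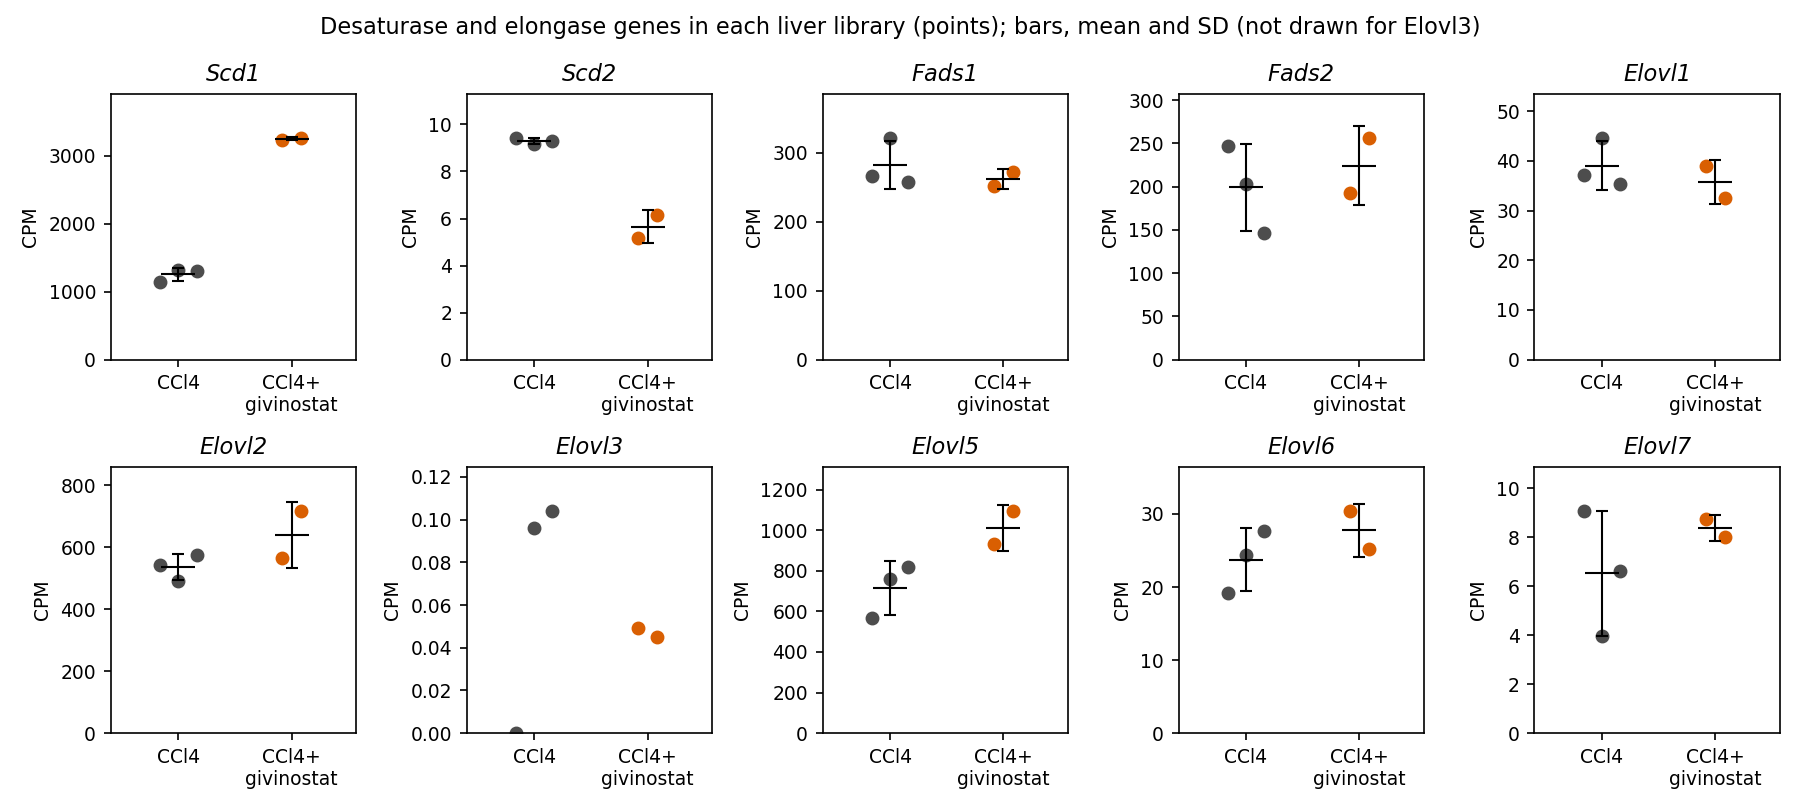
CPM (vertical axis, from 0, its own scale in each panel) of the 10 genes in each CCl4 library (grey) and each CCl4+givinostat library (orange), with mean and SD. Scd1 at 3234 and 3261 CPM and Elovl5 at 931 and 1093 CPM lie above their CCl4 libraries, Scd2 at 5.16 and 6.15 CPM lies below them, and the other genes overlap.

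Scd1 took the most counts of the family in every library and had the largest fitted difference in it. Scd1 had 24137, 27352 and 25029 counts in CCl4 replicates 1 to 3 and 65853 and 72674 counts in givinostat replicates 1 and 2. As levels these were 1143, 1315 and 1300 CPM under CCl4 and 3234 and 3261 CPM under givinostat. Both givinostat libraries lay far above every CCl4 library and close to each other, and the groups did not overlap. The means were 1253 ± 95.1 CPM (SD, n = 3) and 3248 ± 19.01 CPM (SD, n = 2), a 2.59-fold difference and a log2 fold change of 1.37 ± 0.15 (SE). Leaving out each library in turn gave 1.31 to 1.41. In bulk liver, more RNA per cell and more cells that carry a transcript cannot be told apart.

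Scd2, the paralog, was low in every liver and lower under givinostat. Scd2 had 199, 191 and 179 counts under CCl4 and 105 and 137 counts under givinostat. Its level was 9.43, 9.19 and 9.30 CPM in the CCl4 libraries and 5.16 and 6.15 CPM in the givinostat libraries. The coefficient of variation under CCl4, 1.30%, was the smallest of the 9 tested genes. At 179 to 199 counts this is less than counting noise alone usually gives, so it is not read as a trait of the gene. The groups did not overlap. The means were 9.30 ± 0.121 CPM (SD, n = 3) and 5.65 ± 0.701 CPM (SD, n = 2), 1.64-fold lower, with a log2 fold change of -0.72 ± 0.21 (SE). This was -0.60 without givinostat replicate 1 and -0.85 without givinostat replicate 2.

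The paralogs therefore lay on opposite sides, and their ratio within a library does not depend on how libraries are scaled. There were 121, 143 and 140 Scd1 counts for each Scd2 count under CCl4 and 627 and 530 under givinostat. On the log2 scale the ratio averaged 7.07 ± 0.129 (SD, n = 3) under CCl4 and 9.17 ± 0.170 (SD, n = 2) under givinostat. The difference in log2 ratio was 2.10, and 1.98 to 2.22 with each library left out. Scd2 made up 0.818, 0.693 and 0.710% of the counts of the pair under CCl4 and 0.159 and 0.188% under givinostat. Scd1 counts were thus in large excess over Scd2 counts in every library, and the part of reads from shared stretches, such as the one printed above, in the Scd2 counts was not tested. Scd3 had 1, 0 and 0 counts under CCl4 and 0 and 1 under givinostat, and Scd4 had 0, 2 and 5 under CCl4 and 0 and 1 under givinostat, so the other mouse stearoyl-CoA desaturase genes were at or near the detection limit.

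The summed markers of mesothelial cells and cholangiocytes were lower in both givinostat libraries than in any CCl4 library, as Scd2 was, and those of the other cell types examined overlapped. Of 6 mesothelial markers, 6 were lower, and they summed to 13.8, 4.86 and 13.3 CPM under CCl4 and 0.638 and 0.987 CPM under givinostat. Msln, the mesothelin gene, had 72, 24 and 54 counts under CCl4 and 0 and 1 under givinostat. Of 6 cholangiocyte markers, 5 were lower, and they summed to 48.3 to 53.2 CPM under CCl4 and 36.2 to 40.1 CPM under givinostat. Of 5 macrophage markers, 5 were lower, but the sums overlapped, at 259 to 545 CPM and 350 to 380 CPM. Of 5 sinusoidal endothelial markers, 4 were lower, with overlapping sums of 136 to 210 CPM and 89.5 to 206 CPM. The sums overlapped too for 6 markers of T, B and NK cells (4.15 to 6.25 and 3.78 to 4.94 CPM) and for 4 of neutrophils (12.1 to 63.7 and 51.7 to 53.8 CPM). The sums of 7 stellate cell and fibroblast markers overlapped as well, at 286 to 372 CPM under CCl4 and 281 to 345 CPM under givinostat, with 4 of them lower. Scd1 is also abundant in adipocytes. Of 7 adipocyte markers, Lep was at 0 in every library and Adipoq at 0 in all but givinostat replicate 2, with 4 counts. Plin1 had 0, 0 and 0 counts under CCl4 and 3 and 2 under givinostat, and Cfd had 2, 3 and 2 under CCl4 and 1 and 2 under givinostat. The list summed to 11.9 to 19.5 CPM under CCl4 and 11.9 to 18.9 CPM under givinostat. The sum mostly reflects Fabp4, at 11.8, 17.1 and 19.4 CPM under CCl4 and 11.7 and 18.4 CPM under givinostat. The part of these cells in the Scd1 and Scd2 values was not tested.

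**Figure D2:**
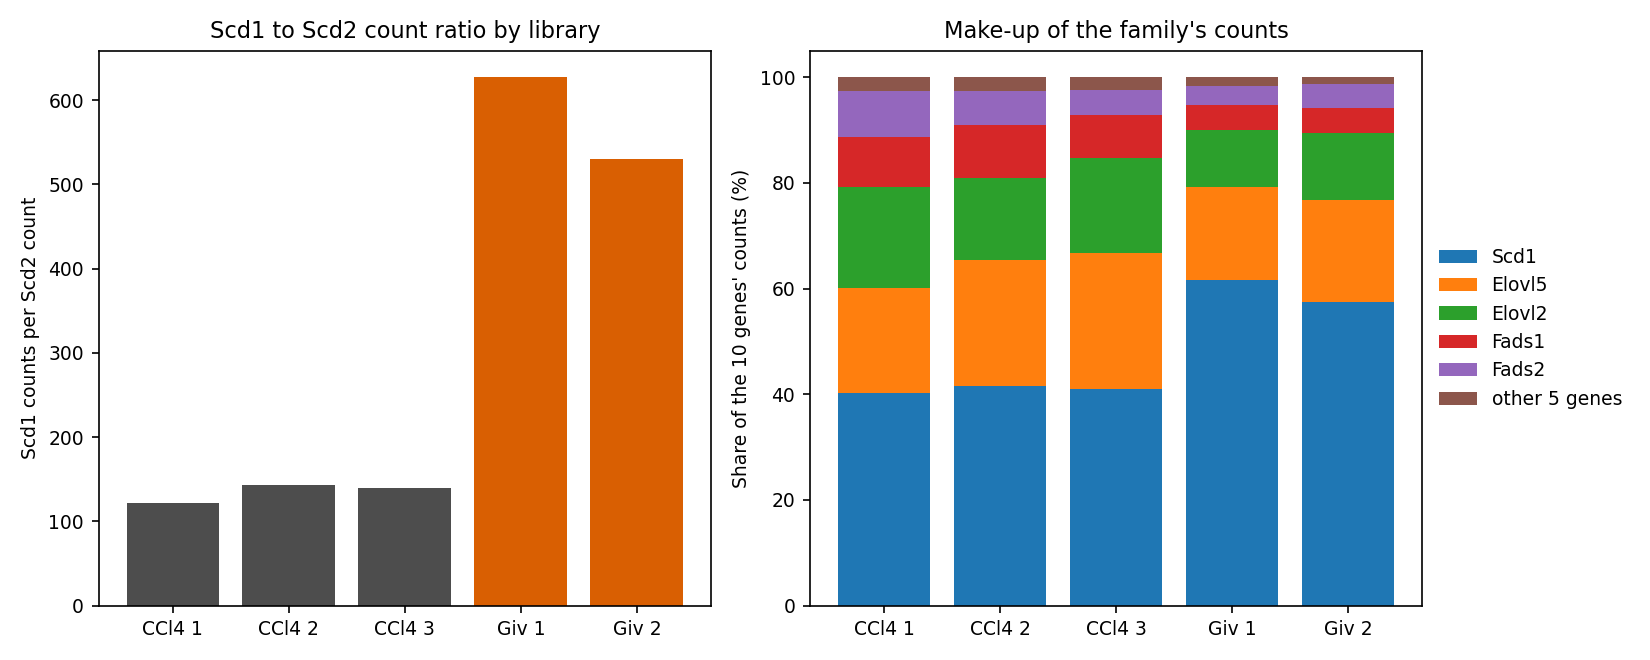
Left, Scd1 counts for each Scd2 count in each library (bars from 0). Right, the share in percent of the summed counts of the 10 genes taken by each gene. The ratio is 121 to 143 in the CCl4 libraries and 530 and 627 in the givinostat libraries, and Scd1 takes 40.2 to 41.5% of the family's counts under CCl4 and 57.5 and 61.5% under givinostat.

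The family took a larger share of the counts under givinostat, mostly through Scd1. Together the 10 genes made up 0.285, 0.313 and 0.329% of all counts under CCl4 and 0.5002 and 0.581% under givinostat. Without Scd1 the others made up 0.170, 0.183 and 0.194% under CCl4 and 0.192 and 0.247% under givinostat, ranges that overlap. The share of Scd1 in the family's counts averaged 40.9 ± 0.645% (SD, n = 3) and 59.5 ± 2.84% (SD, n = 2).

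The genes of polyunsaturated fatty acid synthesis were all well expressed, and among them the groups were apart for Elovl5. Fads2 (chr19:10062765-10101746, minus strand) and Fads1 (chr19:10182888-10196877, plus strand) are neighbours, Elovl5 spans chr9:77917364-77984519 (plus strand), and Elovl2 chr13:41182381-41220405 (minus strand). Fads2, the delta-6 desaturase that opens the pathway, was at 247, 203 and 147 CPM under CCl4 and at 192 and 256 CPM under givinostat. The groups overlapped, and the CCl4 libraries alone had a coefficient of variation of 25.4%. Its log2 fold change was 0.17 ± 0.23 (SE), and its sign was not stable, at 0.36 without givinostat replicate 1 and -0.05 without givinostat replicate 2. Fads1, the delta-5 desaturase, was at 267, 321 and 258 CPM under CCl4 and at 251 and 272 CPM under givinostat, a log2 fold change of -0.11 ± 0.16 (SE). These groups overlapped too. Fads1 counts for each Fads2 count were 1.078, 1.58 and 1.76 under CCl4 and 1.31 and 1.06 under givinostat, also overlapping.

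Elovl5, which elongates the 18- and 20-carbon products of this route, was at 568, 758 and 819 CPM under CCl4 and at 931 and 1093 CPM under givinostat. Both givinostat libraries were above the highest CCl4 library, and CCl4 replicate 1 was the lowest of all. The means were 715 ± 131 CPM (SD, n = 3) and 1012 ± 114 CPM (SD, n = 2), with a log2 fold change of 0.50 ± 0.19 (SE) that was 0.36 without CCl4 replicate 1. Elovl2, which acts after Elovl5 on longer chains, was at 543, 490 and 576 CPM under CCl4 and at 564 and 716 CPM under givinostat. The lower givinostat library lay inside the CCl4 range, and the log2 fold change of 0.26 ± 0.16 (SE) was 0.07 without givinostat replicate 2. Elovl5 counts for each Elovl2 count were 1.05, 1.55 and 1.42 under CCl4 and 1.65 and 1.53 under givinostat. Coding identity is lower here than for the Scd pair, at 66.9% between Elovl2 and Elovl5 and 67.9% between Fads1 and Fads2, with longest identical runs of 23 and 17 bases.

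The promoter of Elovl5 is printed because it is the elongase gene whose groups did not overlap. The 250 bases before its start (RefSeq, GRCm38.p6, chr9:77917115-77917364, plus strand, 5′ to 3′) hold an E-box (CACGTG) and, as ATTGG on this strand, 2 CCAAT boxes, which are in capitals.
Elovl5: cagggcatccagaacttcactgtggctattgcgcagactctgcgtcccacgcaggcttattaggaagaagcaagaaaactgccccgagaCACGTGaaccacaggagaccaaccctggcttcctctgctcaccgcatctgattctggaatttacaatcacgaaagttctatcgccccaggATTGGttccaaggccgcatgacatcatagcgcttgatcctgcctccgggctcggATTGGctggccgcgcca
RefSeq windows from 250 bases before to 50 after the start were matched for 6 of the 10 genes. Scd1, Scd2, Fads1 and Elovl3 had no window and were not searched. Both strands of these were searched for the CCAAT box and the E-box, for GGGCGG (the GC box) and for the TATA box, the sterol regulatory element of the LDL receptor gene, and the nuclear receptor repeats DR1 and DR4. Elovl5 was the only 1 of the 6 with CACGTG, which 7.15% of 32851 such mouse windows hold, and 37.4% hold CCAAT. The GC box, a motif in 35.7% of windows, was found 5 times in 1 of the 2 windows of Elovl2 and not in the other, 5 and 2 times in the windows of Elovl1, 3 times for Elovl7 and 1 time for Fads2. None of the 6 genes had the sterol regulatory element, the TATA box TATAAA, DR1 or DR4, which 0.091%, 13.6%, 0.04% and 0.015% of windows hold. A match is a string of letters and not evidence of binding.

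The elongases of saturated and monounsaturated chains ranged from moderate to undetected, and none had groups apart. All 4 lie on plus strands, Elovl6 at chr3:129532355-129638495, Elovl1 at chr4:118428093-118432953, Elovl7 at chr13:108214404-108285683 and Elovl3 at chr19:46131897-46135694. Elovl6, which supplies stearate to the stearoyl-CoA desaturases, was at 19.1, 24.4 and 27.6 CPM under CCl4 and at 30.3 and 25.2 CPM under givinostat, a log2 fold change of 0.23 ± 0.20 (SE). Givinostat replicate 2 lay inside the CCl4 range, and the value without givinostat replicate 1 was 0.09. Elovl1, an elongase of very long saturated chains, was at 37.2, 44.6 and 35.4 CPM under CCl4 and at 38.9 and 32.6 CPM under givinostat, a log2 fold change of -0.13 ± 0.17 (SE) that was -0.26 without givinostat replicate 1 and -0.0051 without givinostat replicate 2. The exons of Elovl1 overlap those of Cdc20 on the opposite strand over 1.94% of their length. Elovl7, another elongase of saturated chains, was at 9.05, 3.94 and 6.60 CPM under CCl4 and at 8.74 and 7.99 CPM under givinostat. Its CCl4 libraries spread most of the 9 tested genes of the family, with a coefficient of variation of 39.1%, and its log2 fold change of 0.36 ± 0.33 (SE) ran from 0.10 without CCl4 replicate 2 to 0.67 without CCl4 replicate 1.

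Elovl3 was close to undetected. It had 0, 2 and 2 counts under CCl4 and 1 and 1 under givinostat, all under the limit of 3 counts, so no fold change is given. In mouse liver Elovl3 is known as a male-biased and circadian gene. The Xist and Y-linked counts of these libraries are given above. The 13 clock genes summed to 271 to 374 CPM under CCl4 and 304 to 323 CPM under givinostat, but 8 were higher and 5 lower. Tef, for example, was at 30.9, 28.5 and 31.1 CPM under CCl4 and 61.4 and 48.1 CPM under givinostat. Noct was at 52.5, 47.9 and 34.2 CPM under CCl4 and 17.4 and 12.7 CPM under givinostat. The part of sex and of the clock genes in the level of Elovl3 was not tested.

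Per kilobase of transcript, which allows levels of different genes to be set side by side, Scd1 and Elovl5 led the family under CCl4. They averaged 259 ± 19.7 and 257 ± 47.0 CPM per kb (SD, n = 3), and their ranges overlapped. Elovl2 followed at 140 ± 11.4, Fads1 at 83.4 ± 10.2 and Fads2 at 63.2 ± 16.0 CPM per kb, of which Fads1 and Fads2 overlapped. Elovl1 at 30.2 ± 3.79 and Elovl6 at 9.09 ± 1.64 came next, and Scd2 at 1.71 ± 0.0222 and Elovl7 at 1.63 ± 0.636 CPM per kb overlapped near the bottom. Elovl3 was last. With givinostat, Scd1 at 672 ± 3.93 CPM per kb (SD, n = 2) stood clear of Elovl5 at 364 ± 41.1, and Elovl7 at 2.08 ± 0.133 stood above Scd2 at 1.04 ± 0.128 CPM per kb. The rest of the order was the same, with Fads1 and Fads2 again overlapping.

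The genes whose pattern over the 5 libraries was most like that of Scd1, by the root mean square difference of centred log2 CPM among 9718 genes of at least 5 mean CPM, were Cgref1, 2810013P06Rik, Acaa1b, Lepr and Hsd17b11, with differences of 0.194 to 0.211. Acaa1b encodes a peroxisomal thiolase, Lepr the leptin receptor and Hsd17b11 a lipid droplet-associated dehydrogenase. Acaa1b, for example, stood at 1314, 1349 and 1777 CPM under CCl4 and at 3046 and 3056 CPM under givinostat. The genes most like Scd2 were Igsf8, Cp, Mapk7, Srebf1 and Rdh11, with differences of 0.0429 to 0.0769. Srebf1, which encodes SREBP1, was at 59.7, 57.7 and 55.5 CPM under CCl4 and at 32.8 and 43.4 CPM under givinostat. Like Scd2, Srebf1 was lower in both givinostat libraries than in any CCl4 library and lowest in givinostat replicate 1. These genes were picked for their likeness over the same 5 libraries, so the shared pattern follows from the choice. A link between them was not tested.

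The neighbours of Scd1 on chromosome 19 were taken to see whether the difference extended along the chromosome. Within 500 kb of its start, 10 genes outside the family were tested. Their log2 fold changes ran from -0.43 (Cyp2c23) to 0.53 (Dnmbp). All were nearer to 0 than those of Scd1 and Scd2, which were chosen by this contrast. EdgeR called 0 of the 10 and DESeq2 0, beside 0.00736% and 1.09% of all genes. At an unadjusted p under 0.05 there were 2, beside 7.45% of all genes. Sec31b, Ndufb8 and Hif1an, on the other side of Scd1 from Scd2, were at 0.02, 0.29 and -0.03. In the Fads cluster, Fads3, whose product is a desaturase of sphingoid bases, starts at -60.2 kb from the Fads2 start. It was at 18.6, 12.9 and 17.0 CPM under CCl4 and at 24.2 and 28.1 CPM under givinostat, and its log2 fold change of 0.69 ± 0.20 (SE) passed neither tool (adjusted p = 0.420 by edgeR and 0.177 by DESeq2). Fads1 and Fads2 beside it overlapped. Of the 4 tested genes among 7 other desaturase and elongase genes, 2 were higher and 2 lower (median log2 fold change 0.04, and -0.068 to 0.19 with each library left out), and edgeR and DESeq2 called 0, with Fads3 alone at an unadjusted p under 0.05. Degs1, the dihydroceramide desaturase gene, was at 0.10 ± 0.14 and Fads6 at -0.12 ± 0.32 (SE), while Elovl4 had 0 counts in every CCl4 library and 1 in each givinostat library.

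**Figure D3:**
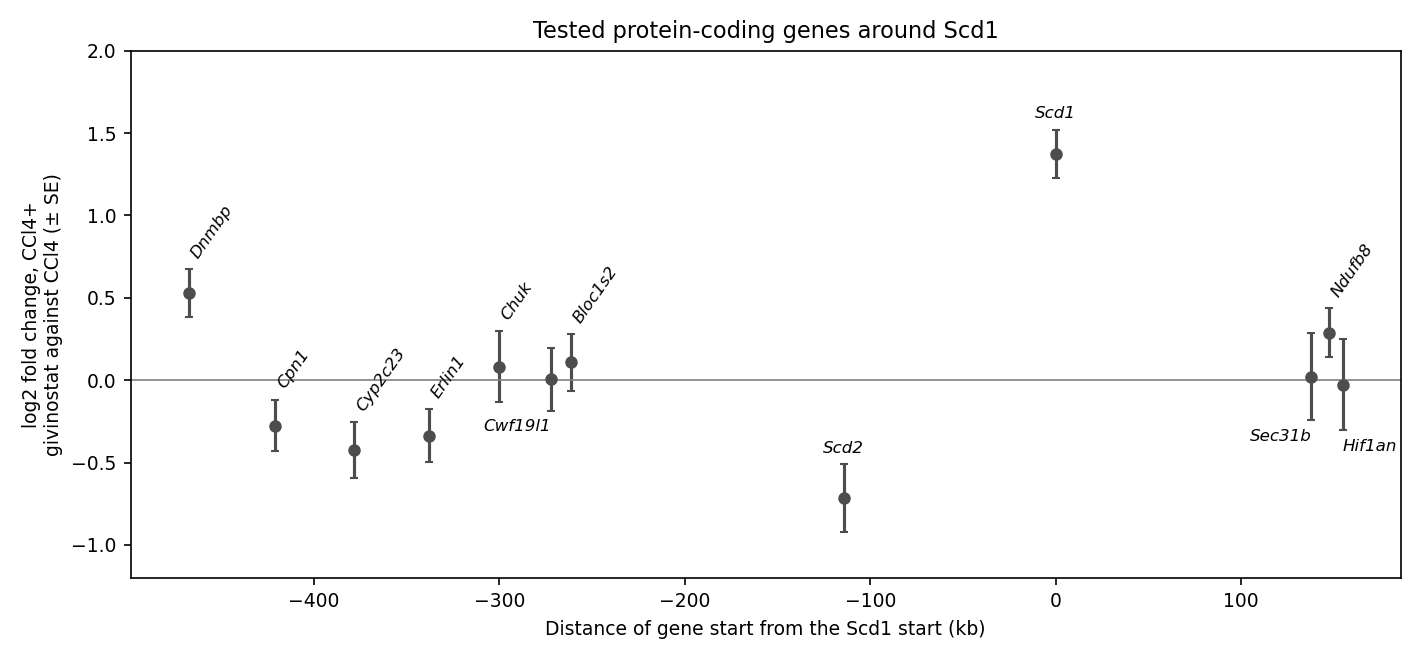
Log2 fold change with its SE (vertical axis) of tested protein-coding genes against the distance in kb of their start from the Scd1 start, in the direction of the chromosome. Scd1 at 1.37 and Scd2 at -0.72 stand 114 kb apart, and the other genes lie between -0.43 and 0.53.

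The enzymes that work with the family in each round of elongation or desaturation had small fitted differences between the groups. The elongation partners are the ketoacyl reductase Hsd17b12, the dehydratases Hacd1 to Hacd4 and the enoyl reductase Tecr. Of these 6, 2 were higher and 4 lower with a median log2 fold change of -0.04, against -0.02 over all genes. At an unadjusted p under 0.05 there were 0, beside 7.45% of all genes, and edgeR and DESeq2 called 0. Hsd17b12 was at -0.08 ± 0.14, Hacd1 at 0.11 ± 0.17 and Hacd2 at -0.11 ± 0.15 (log2 fold change, SE). Cytochrome b5 and its reductases carry the electrons that desaturases need. Of the 5 tested, 1 was higher and 4 lower with a median of -0.07, and again 0 were at an unadjusted p under 0.05 or called by either tool. Cyb5b, the outer mitochondrial form of cytochrome b5, was at -0.25 ± 0.14, and the reductase genes Cyb5r1 and Cyb5r4 at 0.34 ± 0.18 and -0.08 ± 0.16 (SE).

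Lists of regulators and of lipid synthesis genes held genes on both sides. Of 17 regulators around SREBP1c, LXR and the carbohydrate response factor ChREBP, 8 were higher and 9 lower (median log2 fold change -0.04, and -0.13 to 0.014 with each library left out). EdgeR and DESeq2 called 0 of them. At an unadjusted p under 0.05 there were 1 higher and 3 lower, beside 3.52% and 3.93% of all genes. The 3 lower genes were Srebf1 at -0.60 ± 0.17, Insig1, which retains SREBPs in the endoplasmic reticulum, at -0.83 ± 0.25, and Tm6sf2, a gene of hepatic lipoprotein secretion, at -0.57 ± 0.18 (SE). The higher gene, named after its value was seen, was Insig2, the paralog of Insig1, at 719, 352 and 382 CPM under CCl4 and 786 and 936 CPM under givinostat (0.83 ± 0.30, SE). In both Insig genes CCl4 replicate 1 was the CCl4 library nearest to the givinostat libraries. For Insig1, CCl4 replicate 1 at 51.4 CPM was nearer to the givinostat libraries at 43.9 and 41.4 CPM than to the other CCl4 libraries at 93.2 and 83.2 CPM. Of 15 tested lipogenic partner enzymes, 5 were higher and 10 lower (median -0.17, and -0.29 to -0.063 with each library left out). EdgeR called 0 of the 15, and DESeq2 called 2 higher and 2 lower, beside 0.508% and 0.581% of all genes. Cidec, a lipid droplet protein, was at 36.5, 18.9 and 29.2 CPM under CCl4 and at 91.2 and 122 CPM under givinostat (log2 fold change 1.92 ± 0.27, SE; DESeq2 adjusted p = 7.39e-08, edgeR adjusted p = 0.140). Pklr, the liver pyruvate kinase gene, was at 118, 131 and 119 CPM under CCl4 and at 73.7 and 62.3 CPM under givinostat (-0.85 ± 0.15, SE; DESeq2 adjusted p = 0.000705, edgeR adjusted p = 0.174). Acacb, whose product makes the malonyl-CoA that restrains fatty acid oxidation, was at 0.98 ± 0.25 (SE; DESeq2 adjusted p = 0.0425, edgeR adjusted p = 0.345).

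Next come the genes that place the family's products in lipids or shorten them. Of 17 tested genes of acyl-CoA synthesis and acyl use, 11 were higher and 6 lower (median log2 fold change 0.25, and 0.13 to 0.21 with each library left out). EdgeR and DESeq2 called 0 of them. At an unadjusted p under 0.05 there were 4 higher and 1 lower, beside 3.52% and 3.93% of all genes. Acsl1, the main long-chain acyl-CoA synthetase of liver, was at 0.68 ± 0.18, its relative Acsl3 at -0.65 ± 0.16, and Dgat1, which makes triglyceride, at 0.60 ± 0.16 (SE). Synthesis of DHA ends with chain shortening in peroxisomes, and of 8 genes of that step 7 were higher and 1 lower (median 0.41). EdgeR called 0 and DESeq2 called 3 higher, beside 0.508% of all genes. Among the 3 were the thiolase genes Acaa1a at 0.85 ± 0.19 and Acaa1b at 1.04 ± 0.18 (SE).

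Targets of PPARα and of SREBP2 lay on opposite sides. A link of either list to Scd1 or Scd2 was not tested. Of 17 PPARα target genes, 17 were higher (median log2 fold change 0.57), edgeR called 0, DESeq2 called 7, and 13 were at an unadjusted p under 0.05, where 0.508% and 3.52% of all genes were higher by these rules. Cyp4a10, a fatty acid omega-hydroxylase, averaged 1194 ± 204 CPM (SD, n = 3) under CCl4 and 3047 ± 60.1 CPM (SD, n = 2) under givinostat, at 1.35 ± 0.18 (SE). Acot3, a peroxisomal thioesterase, was at 1.00 ± 0.15 and Vnn1, a pantetheinase, at 1.23 ± 0.22 (SE). Close paralogs exist for the Cyp4a, Acaa1 and Acot genes, and the part of shared reads in their values was not tested. Of 17 SREBP2 target genes of cholesterol synthesis and uptake, 17 were lower (median -0.80), edgeR called 0, DESeq2 called 7, and 14 were at an unadjusted p under 0.05, where 0.581% and 3.93% of all genes were lower. Idi1 was at -1.88 ± 0.30 and Cyp51 at -1.32 ± 0.24 (SE). Both lists were written with earlier results of these libraries known, so their direction is not independent of those results.

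**Figure D4:**
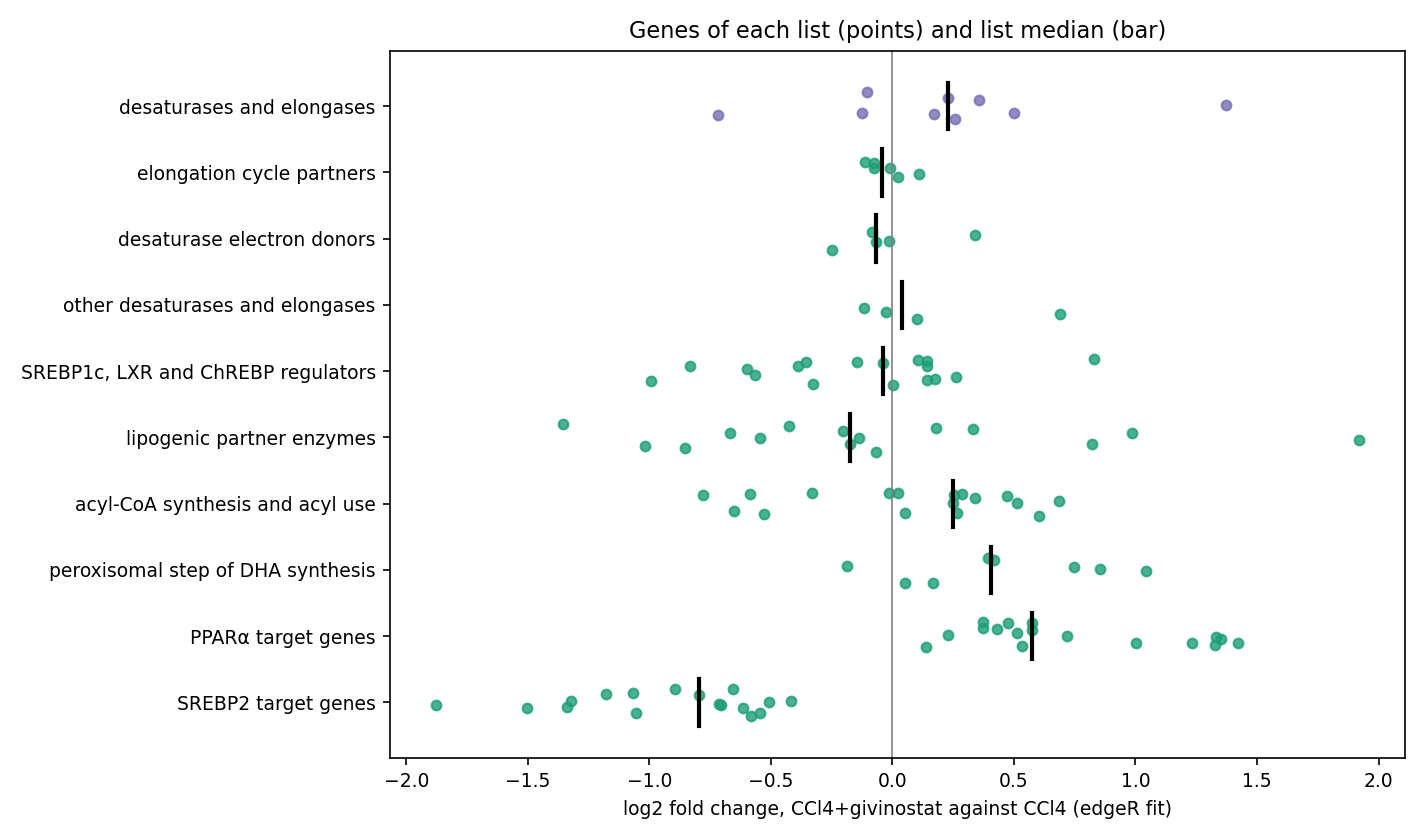
Log2 fold change of givinostat against CCl4 (horizontal axis) of each tested gene (points) by list, with the list median (bar). The family's median is 0.23 with Scd1 at 1.37 and Scd2 at -0.72 as its ends, the PPARα targets have a median of 0.57 and the SREBP2 targets of -0.80.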

How the data were processed

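Frozen liver yielded the total RNA, and the Illumina TruSeq kit the libraries (per the labels' protocols). The deposited values are whole-number read counts per gene symbol, 1 table per library with 24834 rows, as the values show. Bowtie 0.12.2 and the builds mm8 and mm10 appear, with no role, in the submitters' processing notes, and the counter and annotation was not given in the sources used here. Of the rows, 26 per library with a date for a name (0.144 to 0.169% of counts) were left out.

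Counts were fitted in R 4.3.3 with edgeR 4.0.16 (filterByExpr, TMM, quasi-likelihood, treatment as the only term, 3 residual degrees of freedom, Benjamini-Hochberg over 13590 genes). The common biological coefficient of variation was 20.0%. SE is the size of the log2 fold change over the root of F. DESeq2 1.42.0 was the other tool. The procedure was tested on simulated data. The ratio of Scd1 to Scd2 used a pseudocount of 0.5. Lengths and positions come from GENCODE M21, promoters from RefSeq.

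Members and lists were chosen with earlier results of these data known. Named genes are the members, the 3 smallest edgeR p-values of each list and the 5 patterns most like Scd1 and Scd2. Some genes of this rule are not reported here. No library pair agreed within sampling noise. Alternatives were the replicate block, RLE scaling, other filters, each library left out, DESeq2, an adjusted p of 0.1, other pseudocounts and the longest transcript as length.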

Additional observations from a re-analysis of the deposited data

How the results depend on the processing

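Counts of calls depended on the tool and the libraries. The signs of Scd1, Scd2 and Elovl5 were the same under every alternative run. Their groups did not overlap, so leaving out a library could hardly change these signs, and nothing is read from that. With no low-count filter edgeR called 23 genes higher and 15 lower, with DESeq2 69 and 79, with the replicate block 68 and 77, at an adjusted p of 0.1 2 and 1, and with the stricter filter 0 higher, against 1 and 0. Leaving out a library gave 0 to 119 higher and 0 to 116 lower, the highest without CCl4 replicate 1. Among pathway genes, against 0 and 0, these were 7 and 2 with no filter, 12 and 9 with DESeq2, 7 and 6 with the replicate block, and 0 to 14 and 0 to 18 with a library left out. The Scd2 log2 fold change was -0.85 to -0.60 with a library left out. With a library left out, list medians ranged from -0.072 to 0.031 for the elongation partners, -0.10 to 0.0086 for the electron donors and 0.53 to 0.75 for the PPARα targets. The log2 fold change of Cyb5r4 was -0.15 to 0.0083 with a library left out, above 0 without CCl4 replicate 3, and that of Fads6 -0.34 to 0.26, above 0 without CCl4 replicate 1, against -0.08 and -0.12. The cause was not tested. Same-numbered libraries did not deviate together (r = -0.15 and -0.08 over 13590 genes). With 2 givinostat libraries, their deviations from the group mean mirror each other. The check therefore cannot tell whether the numbers pair the libraries. With the block the log2 fold changes of Scd1, Scd2 and Fads2 were 1.40, -0.72 and -0.02, and the Scd1 to Scd2 difference was 2.13. Scd1 was among the 68 genes that edgeR then called higher. It was chosen with this contrast known, and nothing is read from that call. Elovl3, under 3 counts in every library, could not be compared at this depth.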
